A study of Mus musculus with 6 samples.

Results

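The genes described here are the GATA zinc finger transcription factors Gata4, Gata5 and Gata6, their FOG cofactors Zfpm1 and Zfpm2, and the homeobox transcription factor Nkx2-5, in mouse ventricles at E9.5. They were taken by symbol from a gene table of RNA-seq, and all 6 were found among its 23284 genes. The table compares ventricles of WT chimeric embryos (genotype wild type, 3 samples) with those of KD chimeric embryos (genotype Tbx5ua -/-, 3 samples), all of C57BL/6 background. Tbx5ua is a long non-coding RNA transcribed divergently from the promoter of Tbx5, and in KD embryos polyadenylation signals inserted in both of its alleles end transcription early. Embryos of both groups were made from cultured ES cells by tetraploid complementation, so the cells of the embryo itself come from the cultured line. KD embryos were obtained from 2 ES cell lines, and which of them gave the sequenced ventricles is not given in the sources used here. The table names its second group KO, which was taken as the KD group because the series has 2 groups only.

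GATA factors bind DNA through a pair of zinc fingers, and in the embryonic heart GATA4, GATA5 and GATA6 act with the homeodomain factor NKX2-5 and the T-box factor TBX5 on shared cardiac promoters. FOG proteins do not act alone on DNA: they bind the amino-terminal zinc finger of GATA factors and recruit corepressor complexes. FOG2, encoded by Zfpm2, is the FOG of the heart, while FOG1, encoded by Zfpm1, is best known from red cell and megakaryocyte precursors, where it works with GATA1. Nkx2-5 is among the earliest genes of cardiac precursors and stays on in cardiomyocytes.

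Each group has 1 value per gene, in FPKM (fragments scaled to the length of the transcript and to the number of mapped fragments), for its embryos together. Values of single embryos were not analysed here, so a difference between WT and KD cannot be set against the spread between embryos, and no SD, test or p-value is given for any gene below. A difference is given as the log2 ratio of KD over WT with no pseudocount, and a gene is counted as past the fold where its values differ by at least 1.5-fold. Of 11606 genes with at least 1 FPKM in either group, 949 genes (8.18%) were past 1.5-fold, with 562 genes (4.84%) higher and 387 genes (3.33%) lower in KD. The median log2 ratio over these 11606 genes was 0.005. By mean level, 13.6% of genes under 10 FPKM were past 1.5-fold, 2.44% at 10 to 100 FPKM and 3.15% at 100 FPKM or more. For lists of mostly high genes, 8.18% is therefore a high share to compare with. Levels between genes are compared in FPKM, which is scaled to transcript length. The depth of each library is unknown.

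The double zinc finger is the DNA-binding part that defines the GATA family, and its coding stretch is printed to show how far the transcripts of Gata4 and Gata5 differ in it. The coding stretch from the first cysteine of the first finger to the last cysteine of the second finger was located by the spacing of the cysteines in GENCODE transcripts (release M21, GRCm38). In Gata4 it spans exons 3 and 4 on the minus strand of chromosome 14 (63203683 to 63204723, intron included), and in Gata5 exons 2 and 3 on the minus strand of chromosome 2 (180328331 to 180332430, intron included). The spliced stretches are printed from 5′ to 3′, with capitals at the 59 of 237 bases that differ between Gata4 and Gata5.
Gata4: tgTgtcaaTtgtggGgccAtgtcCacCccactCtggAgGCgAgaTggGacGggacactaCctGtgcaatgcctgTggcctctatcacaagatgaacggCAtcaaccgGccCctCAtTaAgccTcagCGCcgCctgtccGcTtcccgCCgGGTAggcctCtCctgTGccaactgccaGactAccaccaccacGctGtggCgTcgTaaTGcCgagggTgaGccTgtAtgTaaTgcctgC
Gata5: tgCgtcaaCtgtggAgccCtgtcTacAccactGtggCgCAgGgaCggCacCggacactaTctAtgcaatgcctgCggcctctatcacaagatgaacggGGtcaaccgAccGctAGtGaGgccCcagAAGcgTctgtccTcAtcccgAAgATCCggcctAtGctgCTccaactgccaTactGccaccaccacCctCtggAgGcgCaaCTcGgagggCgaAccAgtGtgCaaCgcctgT
The stretches are identical at 75.1% of bases between Gata4 and Gata5, at 75.5% between Gata4 and Gata6 and at 69.6% between Gata5 and Gata6. The encoded fingers differ less than the bases: 67 of 79 residues are identical between GATA4 and GATA5. The longest run of identical bases anywhere in the annotated transcripts was 26 bases between Gata4 and Gata5, 18 bases between Gata4 and Gata6, 15 bases between Gata5 and Gata6 and 20 bases between Zfpm1 and Zfpm2. The read length is not given in the sources used here.

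In WT ventricles Nkx2-5 had the highest level of the 6 genes and Zfpm2 the lowest. The order was Nkx2-5, Gata4, Gata5, Gata6, Zfpm1 and Zfpm2 in both groups, and without values of single embryos it cannot be said which neighbours in it differ beyond their spread. Nkx2-5 stood at 72.1 times the level of Zfpm2 in WT and at 64.5 times in KD. All 6 genes had at least 1 FPKM in both groups. None of the 6 was past 1.5-fold, beside 8.18% of all genes, and none had a log2 ratio of 0.32 or more in either direction, beside 22.2% of all genes. Relative to the cardiomyocyte markers Zfpm2 would pass that size, at 0.34. Of the 6 genes 5 were higher and 1, Gata5, was lower in KD, with log2 ratios from -0.08 to 0.30 and a median of 0.18, where 50.9% of all genes were higher.

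**Figure D1:**
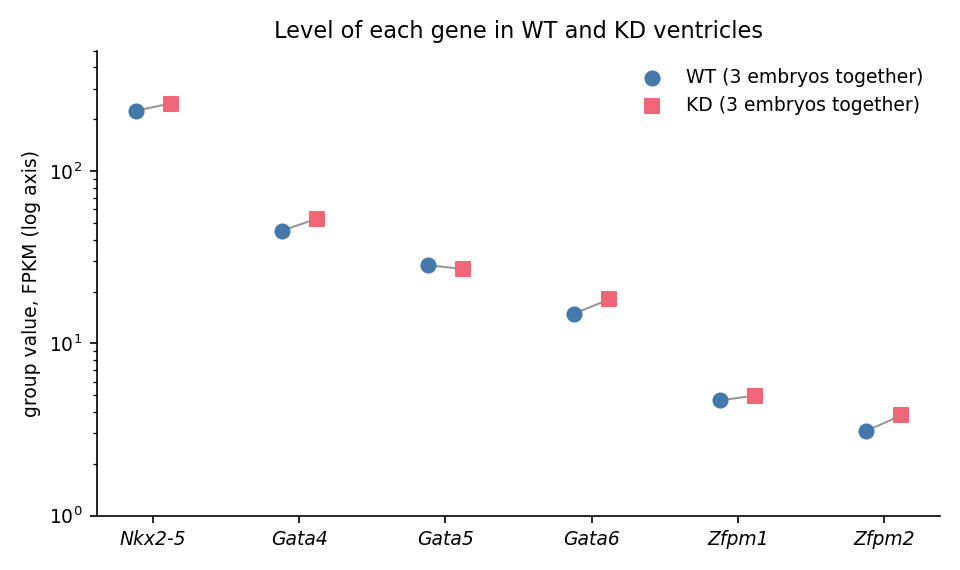
Group value of each gene in FPKM on a log axis, with WT as circles and KD as squares, each 1 value for 3 embryos together and so without an error bar. Nkx2-5 lies highest (224 FPKM in WT) and Zfpm2 lowest (3.11 FPKM in WT), and only Gata5 is lower in KD than in WT.

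Gata4, a factor needed for folding of the heart tube and for growth of the ventricular wall, lies on the minus strand of chromosome 14 (63198915 to 63245260 in the table, mm10). It had 45.1 FPKM in WT against 52.9 FPKM in KD. The KD value was 17.1% above the WT value, a log2 ratio of 0.23. Gata4 was the most abundant of the GATA genes in both groups, with a level above that of 81.2% of the 11606 genes in WT. Among the 4556 genes with a mean of 10 to 100 FPKM, which hold all 3 cardiac GATA genes, the 10th and the 90th percentile of log2 ratios were -0.23 and 0.24. Gata4 lay inside that range, and 22.0% of those genes had a log2 ratio at least as far from 0.

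Gata6, a GATA factor of the heart, the outflow vessels and the gut endoderm, lies on the plus strand of chromosome 18 (11052510 to 11085635). It had 14.9 FPKM in WT against 18.0 FPKM in KD. Its log2 ratio of 0.27 was the largest among Gata4, Gata5 and Gata6. It lay just above the 90th percentile of its level class, with 15.5% of those genes at least as far from 0. GENCODE annotates a processed transcript, 1010001N08Rik, that overlaps Gata6 on the opposite strand and was not analysed here.

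Gata5, which in the heart is known mainly from the endocardium, the inner endothelial lining, lies on the minus strand of chromosome 2 in a locus from 180325088 to 180340732. It had 28.5 FPKM in WT against 27.0 FPKM in KD. This 5.46% lower level in KD, a log2 ratio of -0.08, was the only one of the 6 differences below 0, and 64.8% of genes of its level class were at least as far from 0. The locus in the table also holds Gm14318, which RefSeq lists as a synonym of Gata5os, a lncRNA on the plus strand (180332857 to 180340732). Gm14318 had 4.18 FPKM in WT against 3.06 FPKM in KD, a log2 ratio of -0.45, the same direction as Gata5. Exons of the pair share 258 of the 3277 exon bases of Gata5. The Smart-Seq2 libraries, which copy RNA into full-length cDNA, do not mark the strand, so reads from those 258 bases cannot be told apart.

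Taken as a sum, Gata4, Gata5 and Gata6 had 88.5 FPKM in WT against 97.8 FPKM in KD, a log2 ratio of 0.14. The share of Gata4 in the sum was 51.0% in WT and 54.1% in KD. The share of Gata5 was 32.2% in WT and 27.6% in KD, and that of Gata6 was 16.8% in WT and 18.4% in KD. Gata4 stood at 1.58 times the level of Gata5 in WT and at 1.96 times in KD. Against Gata6 it stood at 3.04 times in WT and at 2.94 times in KD. In these group values the share of Gata5 was thus lower in KD, while the ratio of Gata4 to Gata6 was nearly the same in both groups. Without values of single embryos it cannot be said whether the shares differ beyond the spread between embryos.

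**Figure D2:**
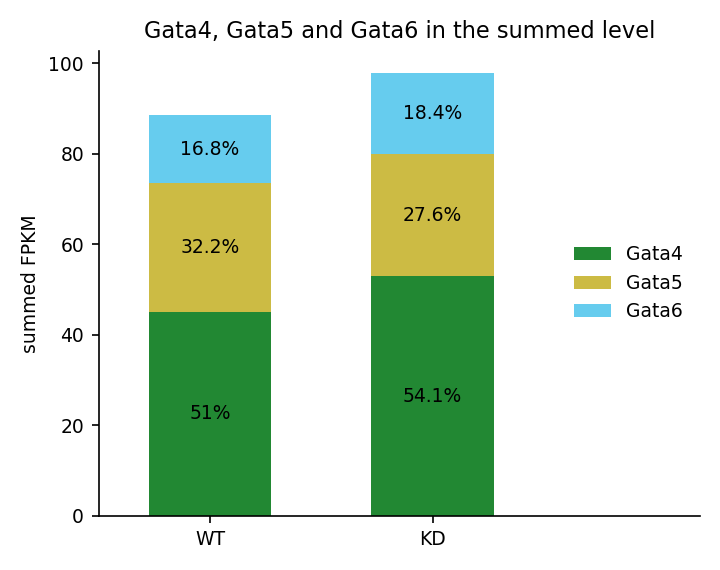
Summed FPKM of Gata4, Gata5 and Gata6 in WT and KD ventricles, 1 value per group for 3 embryos together, with the share of each gene printed in its segment. The sum is 88.5 FPKM in WT against 97.8 FPKM in KD, and the Gata5 segment is the only one that is smaller in KD.

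The cofactor genes were expressed far below Gata4, Gata5 and Gata6. Zfpm2, encoding FOG2, whose loss in mice leaves a thin ventricular wall and a heart without coronary vessels, lies on the plus strand of chromosome 15 (40655042 to 41104592). It had 3.11 FPKM in WT against 3.82 FPKM in KD, the largest relative difference of the 6 genes (23.0%, log2 ratio 0.30). Zfpm2 is also among the low genes, where ratios vary more: of 5874 genes with a mean under 10 FPKM, 13.6% were past 1.5-fold and 37.8% were at least as far from 0 as Zfpm2. Zfpm1, on the plus strand of chromosome 8 (122282141 to 122337247), had 4.67 FPKM in WT against 4.98 FPKM in KD, a log2 ratio of 0.09. Another GENCODE gene model on the same strand, Gm20388, overlaps Zfpm1 and was not analysed here. Of the summed FOG level, 7.78 FPKM in WT against 8.80 FPKM in KD, Zfpm2 made up 40.0% in WT and 43.4% in KD. FOG2 is called the cardiac FOG, and in both groups the Zfpm1 value stood above that of Zfpm2, with both under 10 FPKM and no spread known. The samples also held blood cells, and their part in the level of Zfpm1 was not tested. The summed GATA level was 11.4 times the summed FOG level in WT and 11.1 times in KD.

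Nkx2-5, on the minus strand of chromosome 17 (26838665 to 26841565), had 224 FPKM in WT against 247 FPKM in KD. This was the largest difference of the 6 genes in FPKM (22.7 FPKM) but a small relative one, 10.1% or a log2 ratio of 0.14. Its level was above that of 95.0% of genes in WT. Among the 1176 genes with a mean of at least 100 FPKM, 3.15% were past 1.5-fold and 31.7% had a log2 ratio at least as far from 0 as Nkx2-5. Nkx2-5 stood at 4.97 times the level of Gata4 in WT and at 4.67 times in KD. Against the summed GATA level it stood at 2.53 times in WT and at 2.52 times in KD, nearly the same in both groups.

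**Figure D3:**
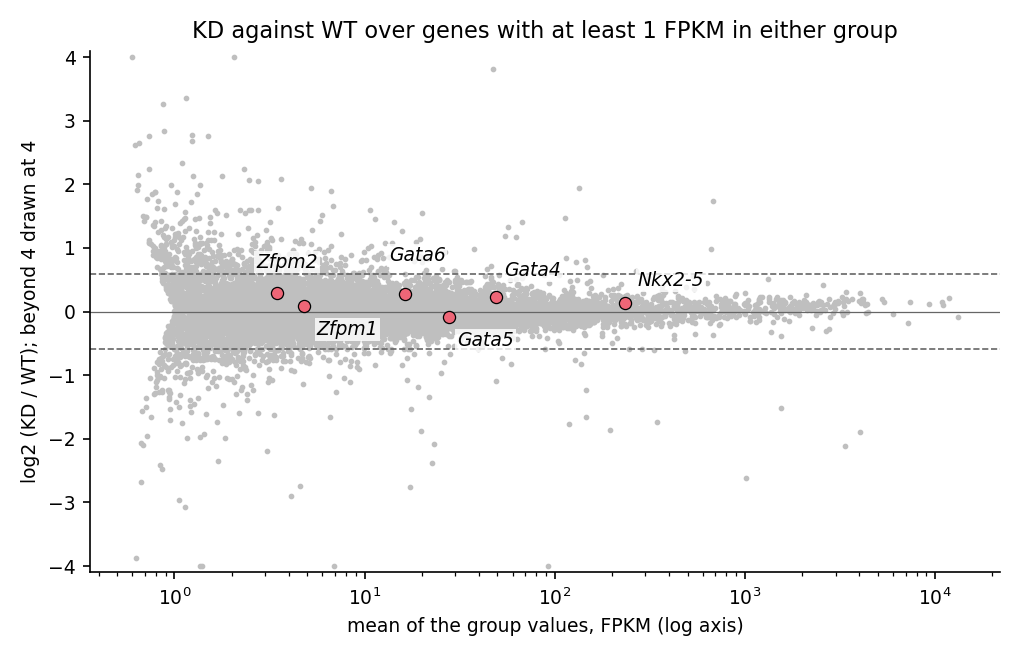
Log2 ratio of KD over WT against the mean of both group values (FPKM, log axis) for genes with at least 1 FPKM in either group and above 0 in both, in grey, with the 6 genes in red and dashed lines at 1.5-fold. The 6 genes lie between -0.08 and 0.30, inside the dashed lines.

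Other members of the GATA and NK homeobox families were listed below 10 FPKM. Gata1, Gata2 and Gata3, the GATA factors of blood and lymphoid lineages and other tissues, together had 11.1 FPKM in WT against 12.9 FPKM in KD. Of these Gata1, the red cell and megakaryocyte factor, had 2.80 FPKM in WT against 3.88 FPKM in KD, a log2 ratio of 0.47, short of 1.5-fold. Gata2 had 6.49 FPKM in WT against 6.85 FPKM in KD, and Gata3 1.77 FPKM in WT against 2.13 FPKM in KD. Trps1, a repressor with a single GATA-type finger, went the other way, with 1.03 FPKM in WT against 0.772 FPKM in KD, a log2 ratio of -0.41. Of 8 other genes of the NK2 and NK3 homeobox families, 0 reached 1 FPKM and 3 were listed at 0 in both groups. The highest of them in WT, Nkx2-6, a relative of Nkx2-5 in the pharynx and the early heart, had 0.310 FPKM in WT against 0.0673 FPKM in KD. Nkx2-1 had 0.286 FPKM in WT against 0.212 FPKM in KD. Nkx2-9 went the other way, with 0.0935 FPKM in WT against 0.452 FPKM in KD. Nkx2-5 was thus the only gene of the 9 with at least 1 FPKM.

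The tissue label was checked against marker genes, of which some are listed at 0, and whether such a 0 is a measured level was not tested. Of 12 cardiomyocyte markers all 12 had at least 1 FPKM and 0 were past 1.5-fold, beside 8.18% of all genes. Their median log2 ratio was -0.04 and their summed level 42996 FPKM in WT against 44564 FPKM in KD. Of 5 ventricular markers 3 were higher and 2 lower in KD, with 0 past 1.5-fold (8.18% of all genes) and a median of 0.13. The light chain gene Myl2 had 10924 FPKM in WT against 12702 FPKM in KD. Mycn, a transcription factor of the growing ventricular wall, had 72.6 FPKM in WT against 53.9 FPKM in KD. The 12 endocardial and endothelial markers, of cells in which Gata5 is known, had 0 past 1.5-fold (8.18% of all genes) and a median of 0.00. Their summed level was 176 FPKM in WT against 188 FPKM in KD. In lists this short a count of 0 is near the share of all genes. Of 12 markers of hepatic and gut endoderm, a tissue that uses Gata4 and Gata6, only Prox1, which cardiomyocytes also express, reached 1 FPKM, and Alb, Fgb, Hnf4a and Foxa1 were listed at 0 in both groups.

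Markers of the epicardium and its precursors, cells that also express Gata4 and Gata6, were mostly higher in KD. Of 9 such genes 8 had at least 1 FPKM, all 8 were higher in KD (50.9% of all genes), 7 were past 1.5-fold (4.84% of all genes), and the list had a summed level of 55.1 FPKM in WT against 118 FPKM in KD. Of the 7, Aldh1a2 reached 1 FPKM in KD only (0.872 FPKM in WT against 1.74 FPKM in KD), the group where it is higher. Tcf21, an epicardial transcription factor, had 11.9 FPKM in WT against 25.5 FPKM in KD. Wt1, the Wilms tumour factor of epicardial cells, had 13.8 FPKM in WT against 19.2 FPKM in KD, short of 1.5-fold. None of these markers was listed at 0 in both groups. Their part in the higher levels of Gata4, Gata6 and Zfpm2 was not tested, and in bulk samples more cells of a type and more RNA per cell cannot be told apart.

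Blood cells were part of the samples too. Of 10 measured erythroid markers 0 were past 1.5-fold, beside 8.18% of all genes, so the count is near that share. Their median log2 ratio was 0.16 and their summed level 7653 FPKM in WT against 7502 FPKM in KD. Of 10 megakaryocyte markers all 10 were higher in KD and 7 were past 1.5-fold, beside 4.84% of all genes, with a summed level of 52.3 FPKM in WT against 114 FPKM in KD, none of them listed at 0 in both groups. Pf4, a platelet chemokine, had 38.5 FPKM in WT against 86.9 FPKM in KD. Zfpm1 and Gata1 are expressed in both lineages, and the part of blood cells in the level of Zfpm1 was not tested. Of 8 outflow and second heart field genes 3 reached 1 FPKM, all 3 lower in KD with a median of -0.27, and Fgf8 was past 1.5-fold (3.33% of all genes), while Tbx1 was listed at 0 in both groups. Of 8 neural crest and pharyngeal genes 2 reached 1 FPKM, Msx1 lower and Twist1 higher in KD, both past 1.5-fold, beside 8.18% of all genes. Of 7 atrial and sinus venosus genes 5 reached 1 FPKM and 4 were past 1.5-fold, all higher in KD (4.84% of all genes), with a median of 0.96 and Sln listed at 0 in both groups.

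Of 22 expressed genes for proteins that work with GATA4 and NKX2-5 on DNA, 2 were past 1.5-fold, beside 8.18% of all genes, a share near that background. Both were higher in KD, and the median log2 ratio was -0.04. Nr2f2, encoding the nuclear receptor COUP-TFII, to which FOG2 is known to bind, had 2.01 FPKM in WT against 4.15 FPKM in KD. Nfatc4, a calcineurin-dependent partner of GATA4, reached 1 FPKM in KD only, with 0.676 FPKM in WT against 1.20 FPKM in KD. Tbx5 itself had 17.2 FPKM in WT against 15.7 FPKM in KD, a log2 ratio of -0.14, opposite in sign to Gata4 and Nkx2-5. Tbx20, another T-box partner, had 53.3 FPKM in WT against 44.8 FPKM in KD. The coactivator Myocd had 48.0 FPKM in WT against 48.3 FPKM in KD. Hand1, Hand2 and Mef2c had log2 ratios of 0.12, 0.14 and 0.00.

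Of 14 genes of the NuRD and CtBP corepressors, which FOG proteins recruit, 0 were past 1.5-fold, beside 8.18% of all genes, with a median log2 ratio of -0.03. The histone-binding subunit Rbbp7, the highest, had 336 FPKM in WT against 329 FPKM in KD, and the deacetylase Hdac1 had 90.6 FPKM in WT against 87.1 FPKM in KD. Rbbp4, a histone-binding subunit like Rbbp7, had a log2 ratio of -0.07. Gatad2b, a scaffold subunit, came closest to the threshold, with 4.82 FPKM in WT against 3.23 FPKM in KD. Of 11 measured coactivators and chromatin partners 0 were past 1.5-fold, beside the same share, with a median of 0.01. Among them Smarcd3, the cardiac BAF subunit that works with GATA4 and TBX5, had 18.5 FPKM in WT against 13.7 FPKM in KD, and Lmo4, a LIM-only adaptor, had 40.7 FPKM in WT against 60.9 FPKM in KD, a log2 ratio of 0.58. Smarca4, the BAF ATPase, had a log2 ratio of -0.01, and Cited2, an adaptor of histone acetyltransferases, -0.27.

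Of genes that GATA4 and NKX2-5 are known to act on, or that are commonly used as their readouts, 27 were expressed and most lay within 1.5-fold. Of these 3 were past 1.5-fold, 1 higher (4.84% of all genes) and 2 lower (3.33% of all genes), with a median log2 ratio of -0.01. The count is near the 8.18% of all genes, but most of the 27 lie above 10 FPKM, where fewer genes were past 1.5-fold. Of genes with a mean of 10 to 100 FPKM these were 2.44%, and of genes at 100 FPKM or more 3.15%. Gja5, encoding connexin 40 of the atria and trabeculae, had 7.02 FPKM in WT against 12.1 FPKM in KD, a log2 ratio of 0.79. Ankrd1, a cardiac ankyrin repeat gene, had 347 FPKM in WT against 231 FPKM in KD, a log2 ratio of -0.59. Tnnc1, encoding cardiac troponin C and long known as a GATA4 target, had a log2 ratio of -0.05. Adora1, encoding the adenosine A1 receptor, had 1.47 FPKM in WT against 0.834 FPKM in KD. Actc1 and Sln were listed at 0 in both groups, and the 0 of Actc1, cardiac actin, is not a measured level, since the table marks that gene as having too many reads.

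**Figure D4:**
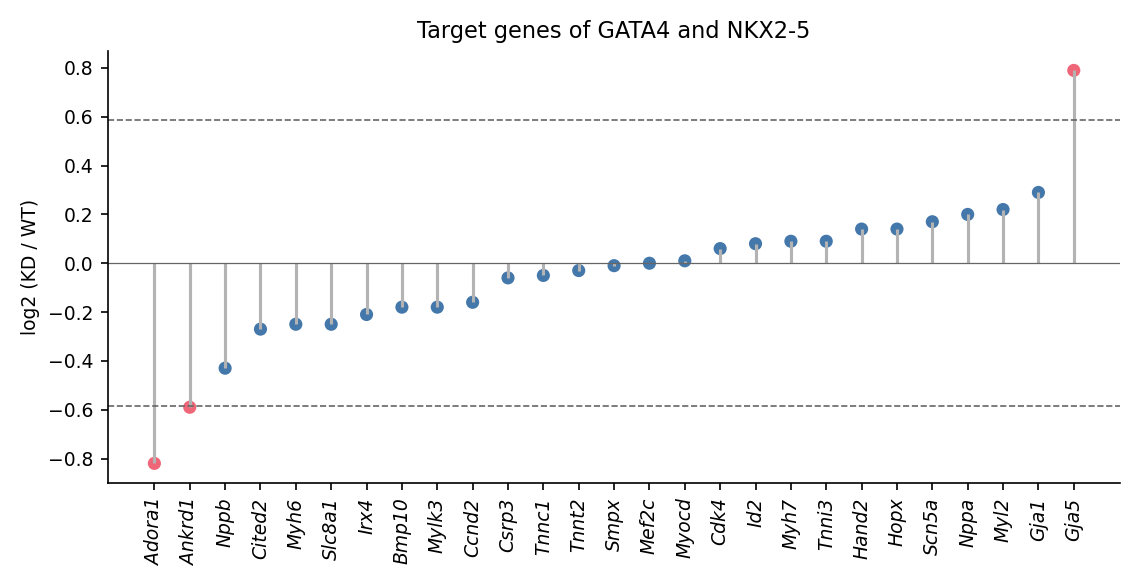
Log2 ratio of KD over WT for the 27 genes of the list of GATA4 and NKX2-5 targets with at least 1 FPKM in either group, ordered by the ratio, with dashed lines at 1.5-fold and genes past it in red. Adora1 and Ankrd1 lie at or below the lower line and Gja5 above the upper one, while the other 24 lie between them.

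The natriuretic peptide genes Nppa and Nppb, textbook targets of GATA4 and NKX2-5, had log2 ratios of opposite sign. Nppa had 2588 FPKM in WT against 2967 FPKM in KD, a log2 ratio of 0.20. Nppb had 485 FPKM in WT against 360 FPKM in KD, a log2 ratio of -0.43. Neither was past 1.5-fold.

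The 250 bases before the start of each peptide gene are shown because they carry letters of the motifs of these factors. They come from the RefSeq promoter table (GRCm38.p6), and both genes lie on the plus strand: Nppa at chr4:148000472-148000721 and Nppb at chr4:147985650-147985899. Capitals mark matches, on either strand, to GATAA (GATA factors; TTATC on the other strand), AAGTG (NK2 factors; CACTT) and AGGTGT (T-box factors; ACACCT), and no matches overlapped in these sequences.
Nppa: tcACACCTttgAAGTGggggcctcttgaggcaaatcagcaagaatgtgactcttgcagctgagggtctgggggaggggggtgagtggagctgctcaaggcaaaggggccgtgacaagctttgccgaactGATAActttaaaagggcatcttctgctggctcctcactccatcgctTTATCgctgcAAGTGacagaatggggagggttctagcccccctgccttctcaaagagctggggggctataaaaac
Nppb: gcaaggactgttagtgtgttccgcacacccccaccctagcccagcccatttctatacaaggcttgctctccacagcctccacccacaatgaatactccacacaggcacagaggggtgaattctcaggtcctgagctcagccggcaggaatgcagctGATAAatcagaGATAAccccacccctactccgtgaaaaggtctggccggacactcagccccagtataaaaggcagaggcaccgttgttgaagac
In Nppa the GATA letters begin 121 and 75 bases before the start, the NK2 letters 239 and 65 bases before it and the T-box letters 248 bases before it. In Nppb the GATA letters begin 94 and 83 bases before the start, and no NK2 or T-box letters were found in this window. Of 32817 promoter windows of this length, 22.6% hold the GATA letters, 40.7% the NK2 letters and 11.8% the T-box letters, so a match is a description and not a site. The table matched 3 of the 6 genes, Gata5, Zfpm1 and Nkx2-5, and their windows hold none of these letters.

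Genes linked to GATA5 or GATA6 had mostly lower values in KD, but only 3 of them were past 1.5-fold. Gata6 itself, at a log2 ratio of 0.27, was not. The list of these linked genes was compiled by hand and its members were not checked against binding data. Of 9 expressed genes 8 were lower, where 50.9% of all genes were higher in KD, and 3 were past 1.5-fold, all lower (3.33% of all genes), with a median log2 ratio of -0.27. The outflow and second heart field markers, which share some genes with these lists, had a summed level of 11.4 FPKM in WT against 8.85 FPKM in KD, and their part in this list and in that of BMP inputs was not tested. Wnt2, a Wnt ligand of the inflow region known to act in a loop with GATA6, had 21.0 FPKM in WT against 12.7 FPKM in KD. Bmp4, a ligand of the BMP family, had 6.52 FPKM in WT against 2.96 FPKM in KD, and Cyp26b1, which breaks down retinoic acid, had 2.30 FPKM in WT against 1.02 FPKM in KD. Nos3, encoding endothelial nitric oxide synthase, was the gene that was higher, with 14.0 FPKM in WT against 16.2 FPKM in KD. Sema3c, a guidance factor of the outflow tract regulated by GATA6, had 5.38 FPKM in WT against 4.47 FPKM in KD. Nfatc1, an endocardial factor that works with GATA5, had 16.4 FPKM in WT against 13.7 FPKM in KD.

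Among inputs known to lie upstream of Gata4 and Nkx2-5, BMP signals through SMAD proteins induce both genes in early mesoderm. Of 12 expressed genes of BMP signalling and early cardiac mesoderm 8 were lower in KD and 3 were past 1.5-fold, all lower (3.33% of all genes), with a median log2 ratio of -0.24. Besides Bmp4 these were Foxh1, a forkhead factor of the anterior heart field, with 20.2 FPKM in WT against 11.3 FPKM in KD, and Fgf8, with 2.45 FPKM in WT against 1.41 FPKM in KD. Bmp5 had 15.5 FPKM in WT against 11.6 FPKM in KD, Bmp7 had 77.4 FPKM in WT against 75.2 FPKM in KD, and Smad4, the shared SMAD, had 14.6 FPKM in WT against 11.4 FPKM in KD. The 4 genes that were higher in KD included Bmp2, another BMP ligand, with 5.18 FPKM in WT against 6.34 FPKM in KD, and Cfc1, a Nodal co-receptor, with a log2 ratio of 0.39. Across all 6 lists of partners, cofactors, targets and inputs, 85 genes were expressed. Of these 10 (11.8%) were past 1.5-fold, beside 8.18% of all genes, with 3 higher and 7 lower. The order turned with no filter on low values, with 15.6% of 90 list genes past it beside 28.6% of 17383 genes. That setting adds many genes under 1 FPKM to all genes and few to the lists. At a log2 ratio of 0.32 the order also turned, with 21.2% beside 22.2%. It held at 2-fold (3.53% beside 2.90%) and with a pseudocount of 1 FPKM (8.24% beside 3.66%). The same held with at least 1 FPKM in both groups (9.64% beside 5.01%) and at least 5 FPKM in either group (7.58% beside 3.57%).

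**Figure D5:**
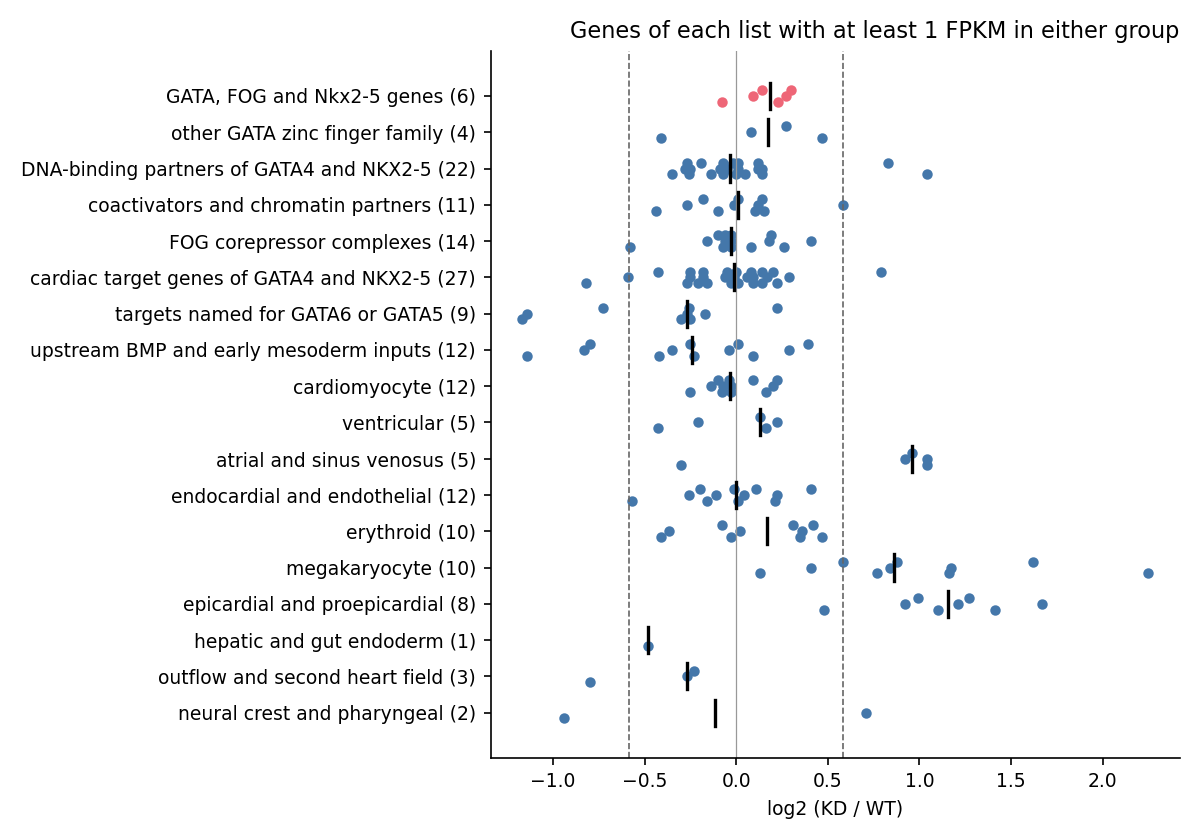
Log2 ratio of KD over WT for the genes of each list with at least 1 FPKM in either group (number in brackets), 1 point a gene, with the median as a black bar and dashed lines at 1.5-fold. The 6 genes, in red, have a median of 0.18, the epicardial, atrial and megakaryocyte lists lie to the right with medians of 1.16, 0.96 and 0.86, and the lists of GATA5 or GATA6 targets and of BMP inputs have medians of -0.27 and -0.24.

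The genes that lie next to the 6 genes on the chromosome were read by the coordinates of the table. By the nearest gene on each side with at least 1 FPKM, and any that overlaps, 16 neighbours were found, with a median log2 ratio of -0.06 over those above 0 in both groups. Beside Nkx2-5 these were Bnip1, 46.1 kb away, with 52.1 FPKM in WT against 56.1 FPKM in KD, and Kifc5b, 75.5 kb away, with 1.89 FPKM in WT against 1.14 FPKM in KD. Beside Gata4 they were Ctsb and Fdft1, which share a locus 21.1 kb away, with log2 ratios of -0.06 and 0.02, and Mtmr9, 278 kb away, with -0.07. Beside Gata5, besides the overlapping Gm14318, Cables2 lay 51.6 kb away (log2 ratio 0.38). Beside Zfpm1 they were Zc3h18, 39.4 kb away (log2 ratio -0.01), and Banp, 253 kb away (-0.10), and beside Zfpm2 Lrp12 (-0.54) and Oxr1 (0.13). Of the 16 neighbours 4 were past 1.5-fold, beside 8.18% of all genes: Kifc5b, 1600027N09Rik (log2 ratio 0.65) on one side of Gata5, and the microRNA genes Mir1b and Mir1a-2 within the locus of Mib1, 240 kb from Gata6. Mir1b had 30.3 FPKM in WT against 4.51 FPKM in KD, and Mir1a-2 was listed at 0 in WT and had 132 FPKM in KD. GENCODE places all 72 bases of Mir1a-2 within Mir1b on the opposite strand, so in libraries that do not mark the strand their reads cannot be told apart, and the pair is 1 locus rather than 2. Mib1 itself had 2.82 FPKM in WT against 2.31 FPKM in KD, and Rbbp8, on the other side of Gata6, had a log2 ratio of 0.14.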

How the data were processed

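RNA-seq of E9.5 ventricles was made by the authors from 10 ng of total RNA per sample with Smart-Seq2, amplified over 12 cycles as cDNA and over 9 more as library. The submitters' processing notes name TopHat, Bowtie2, Cuffdiff and mm10, and no versions. The authors deposited 1 Cuffdiff table in which every gene has 1 FPKM value for WT and 1 for KD, each over 3 samples together. It holds 0 columns of per-sample values. Its other columns hold the authors' own comparison (fold changes, test statistics, p-values, q-values and calls) and were not used, so no test stands behind any difference here. A mark for genes with too many reads was read for Actc1 only.

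Log2 ratios were computed from the deposited FPKM values, with no pseudocount. Genes with at least 1 FPKM in either group were counted; 58 of these were at 0 in one group and count as past the fold but enter no median. Table starts were given 1 added base. Reference sequences came from GENCODE M21 and RefSeq. Nsd2 and Hba-a1 were not analysed here. The genes and lists were chosen with earlier results of these data known. Named were the 6 genes and, by rule, genes of a list that were past 1.5-fold with at least 1 FPKM in both groups, were among the 3 highest of a list in WT, or were the nearest gene on each side with at least 1 FPKM. Those of the marker lists are given mostly as counts. Others were chosen after their values were seen. Alternatives were a pseudocount of 1, other folds and filters, and other scalings. The fold call was tested on simulated data. Python 3.11.15, NumPy 2.4.6, pandas 2.3.3 and Matplotlib 3.10.9 were used.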

Additional observations from a re-analysis of the deposited data

How the results depend on the processing

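No paired analysis was possible because each group has only a joint value, and for the same reason leaving out each replicate was not run. Since no spread is known, each log2 ratio that differed at 2 decimals is given here. With a pseudocount of 1 FPKM the log2 ratios were 0.22 for Gata4, 0.26 for Gata6, 0.08 for Zfpm1 and 0.23 for Zfpm2. Less the median of all genes (0.005) they were 0.22 for Gata4, -0.09 for Gata5, 0.29 for Zfpm2 and 0.13 for Nkx2-5. With both groups rescaled to the same FPKM sum they were 0.20 for Gata4, -0.11 for Gata5, 0.24 for Gata6, 0.06 for Zfpm1, 0.27 for Zfpm2, 0.11 for Nkx2-5 and 0.11 for the summed GATA level. Less the median of the cardiomyocyte list (-0.04), chosen after seeing the data, they were 0.26 for Gata4, -0.04 for Gata5, 0.31 for Gata6, 0.13 for Zfpm1, 0.34 for Zfpm2, 0.18 for Nkx2-5 and 0.18 for the summed GATA level, and the median of the 6 genes was 0.22. Each of the 6 genes kept its direction in these 4 settings, and 0 were past the fold under each fold and filter on unscaled values, while Zfpm2 at 0.34 would pass a log2 ratio of 0.32; with at least 5 FPKM in either group Zfpm1 and Zfpm2 were left out. The 10 genes of the partner, target and input lists past the fold became 18 of 85 at a log2 ratio of 0.32 (21.2%, below the 22.2% of all genes). They were 3 of 85 at 2-fold (3.53%, beside 2.90%) and 5 of 66 with at least 5 FPKM in either group (7.58%, beside 3.57%). A lower fold gives more genes and a higher fold or filter fewer by construction. The shares beside those of all genes are not fixed in this way. With a pseudocount of 1 FPKM the list genes past the fold were 7 of 85 (8.24%, beside 3.66% of all genes). With at least 1 FPKM in both groups they were 8 of 83 (9.64%, beside 5.01%). With no filter they were 14 of 90 (15.6%), below the 28.6% of all genes. This setting and the log2 ratio of 0.32 turn round the order of 11.8% against 8.18%. For Zfpm1, Zfpm2 and other genes of low FPKM the counting error is unknown, because the depth is.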
